A study of Mus musculus with 3 samples.

Results

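Ptgds, Dcn, Acta2 and Fbln1 are genes that connective tissue, vessel wall and barrier cells express strongly. Their signals were compared across 3 microarrays of mouse neural retina. They are 4 of the 8251 genes that the array's platform annotation names with a single symbol, and 9 of its 12422 probe sets carry one of them: 3 for Ptgds, 1 for Dcn, 1 for Acta2 and 4 for Fbln1. The members were chosen by their measured signals, because some of their probe sets were low in 1 of the 3 pools. That low signal is therefore given below as a description, without a test.

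Each array held total RNA from the pooled retinas of 3 to 4 Rp1 knockout mice (Rp1-/-) of mixed 129/SvEv and C57BL/6 descent. The animals were at postnatal day 21 and the tissue was taken between 1 and 2 pm. All 3 pools belong to this 1 group, no wild-type sample was analysed here, and the allele and the sex of the mice are not given in the labels. The pools are called replicates 1, 2 and 3, numbers that only name them. Because every value is from a pool of whole retinas, fewer cells of a type and less RNA per cell cannot be told apart.

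A retina contains few stromal cells. Fibroblast-like cells and mural cells, the pericytes and smooth muscle cells of vessel walls, lie along its vessels, while the choroid, sclera, ciliary body and optic nerve sheath around it are rich in them. Decorin, encoded by Dcn, is a small leucine-rich proteoglycan that binds collagen fibrils and growth factors. Fibulin-1, encoded by Fbln1, is a secreted calcium-binding glycoprotein of basement membranes and elastic fibres, made as splice forms that differ at their carboxyl end. Acta2 encodes the smooth muscle actin of vascular smooth muscle, some pericytes and myofibroblasts. Ptgds encodes lipocalin-type prostaglandin D synthase, which makes prostaglandin D2 and also carries retinoids and other lipids. Leptomeningeal cells, oligodendrocytes and the retinal pigment epithelium are known sources of Ptgds.

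The sequence upstream of the annotated start is shown for the members that the RefSeq promoter table holds, because Ptgds and Acta2 shared a low pool. In it 3 of the 4 members were matched: Ptgds and Acta2 with 1 start each and Fbln1 with 2 starts, 59 bases apart. Each line gives 250 bases, 5′ to 3′. For Fbln1 the window of the upstream start is printed. Capitals in the Acta2 line mark the MCAT core GGAATG and a pair of CArG-like elements.

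Acta2 (GRCm38.p6, chr19:34255374-34255623, minus strand): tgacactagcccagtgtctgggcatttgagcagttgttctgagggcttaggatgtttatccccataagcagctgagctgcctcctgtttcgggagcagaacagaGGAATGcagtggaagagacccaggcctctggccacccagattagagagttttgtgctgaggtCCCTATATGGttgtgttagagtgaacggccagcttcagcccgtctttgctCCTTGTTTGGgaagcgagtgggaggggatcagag
Ptgds (GRCm38.p6, chr2:25469750-25469999, minus strand): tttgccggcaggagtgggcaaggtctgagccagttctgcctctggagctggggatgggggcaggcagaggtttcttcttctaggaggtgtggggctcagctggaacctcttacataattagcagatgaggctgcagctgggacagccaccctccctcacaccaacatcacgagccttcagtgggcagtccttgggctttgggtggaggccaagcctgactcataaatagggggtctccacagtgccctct
Fbln1 (GRCm38.p6, chr15:85205699-85205948, plus strand): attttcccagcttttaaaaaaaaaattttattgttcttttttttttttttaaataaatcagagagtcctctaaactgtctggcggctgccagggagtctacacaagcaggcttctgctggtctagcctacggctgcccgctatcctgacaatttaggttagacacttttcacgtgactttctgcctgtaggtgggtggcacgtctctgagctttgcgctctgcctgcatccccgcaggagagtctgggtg

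CArG boxes are the binding elements of serum response factor, and those of Acta2 are known to carry a G or C within their run of A and T. Searched on both strands and allowing at most 1 such letter among the 6, a form chosen after the Acta2 window was read, 2 elements were found in Acta2: CCCTATATGG at 84 to 75 bases before the start and CCTTGTTTGG at 34 to 25 bases before it. Neither the Ptgds window nor either Fbln1 window held one. Such an element was present in 8.59% of all 32851 windows of this length, and the strict CArG box, which none of the members had, in 1.47%. The MCAT core, at 146 to 141 bases before the Acta2 start, was present in 12.6% of windows. The E-box CANNTG occurred 3 times upstream of Acta2, 3 times upstream of Ptgds and 1 time in the printed Fbln1 window, and 66.2% of all windows held at least 1. These elements do not overlap each other in the Acta2 line, and a match of letters is not a measurement of binding.

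Signals are deposited linear intensities after a single scaling factor per array (0.998, 1.002 and 1.000). A probe set was taken as above background where it exceeded the 95th percentile of 19 bacterial and yeast control probe sets, which lay at 160.3, 80.7 and 107.1 in replicates 1, 2 and 3. By this limit 63.8% to 69.4% of probe sets were above background per array, and 54.4% on all 3. The ratio of the 3′ to the 5′ control probe set, a sign of RNA integrity, was 1.31, 1.5 and 1.47 for beta-actin and 0.898, 0.929 and 0.845 for Gapdh. Its part in the results was not tested. No probe set is annotated to Rp1 with a single symbol, so the knockout rests on the labels, and the 10 measured rod photoreceptor genes, Gnat1 among them, were all above background on every array.

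Ptgds gave strong signals at all 3 of its probe sets in every pool. At 92546_r_at the signals were 889, 12449 and 6736 in replicates 1, 2 and 3, with a mean of 6691 ± 5780 (SD, n = 3 pools). Replicate 1 was lowest and replicate 2 highest, 14.0-fold above it, while replicate 3 was 7.58-fold above replicate 1. The other probe sets had the same order of pools with smaller gaps. At 102105_f_at the signals were 2257, 8353 and 4569 (mean 5060 ± 3078), and at 92545_f_at they were 1665, 8114 and 4901 (mean 4893 ± 3224). Replicate 2 was thus 3.70-fold and 4.87-fold above replicate 1 at these probe sets, and replicate 3 was 2.02-fold and 2.94-fold above it. The suffixes matter here: _f marks probes that are shared with similar sequences, and _r marks a probe set that met fewer of the maker's selection rules.

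Dcn was measured by 1 probe set, 93534_at. It gave 23.1, 602 and 648 in replicates 1, 2 and 3 (mean 424 ± 348). Replicates 2 and 3 were close to each other and 7.47 and 6.05 times their own background limits, whereas replicate 1 was at 0.144 of its limit. Against that limit, replicate 2 was at least 3.76-fold higher and replicate 3 at least 4.04-fold higher than replicate 1.

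Acta2 had a like pattern at its only probe set, 93100_at, with 55.5, 722 and 734 in replicates 1, 2 and 3 (mean 504 ± 388). Its signal in replicate 1 was at 0.346 of the limit. Replicates 2 and 3 were therefore at least 4.50-fold and at least 4.58-fold higher. Both genes thus have only a bound for replicate 1, and with 1 probe set each neither pattern could be compared within the gene.

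Fbln1 showed disagreement between its probe sets. At 94307_at the signals were 126, 946 and 996 in replicates 1, 2 and 3 (mean 690 ± 489), below background in replicate 1 and at least 5.90-fold and 6.22-fold higher in the other pools. At 94308_at they were 720, 1247 and 1424 (mean 1130 ± 366), and replicate 1 was 1.73-fold and 1.98-fold below the others. At 94309_g_at they were 2070, 2688 and 3660 (mean 2806 ± 802), with gaps of 1.30-fold and 1.77-fold. These probe sets placed replicate 1 lowest, but by very different amounts. The remaining one, 161628_r_at, was below background on all arrays (62.2, 59.1 and 20.5) and so gives no order. Which splice form each probe set reads is not stated in the annotation used here.

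**Figure D1:**
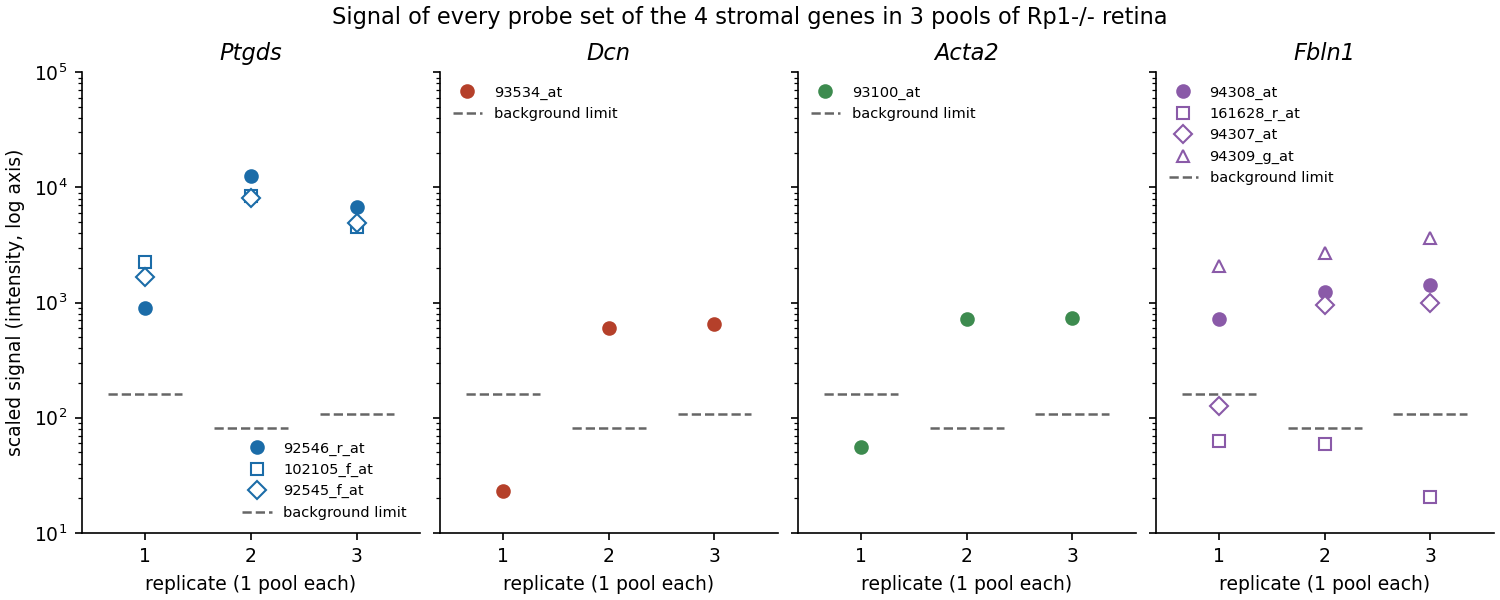
Scaled signal (intensity, log axis) of every probe set of Ptgds, Dcn, Acta2 and Fbln1 in replicates 1, 2 and 3, 1 point per pool, with filled symbols for the probe set used where a gene is given by 1 value and dashed lines for the background limits (160.3, 80.7 and 107.1). Dcn, Acta2 and the Fbln1 probe set 94307_at lie under the limit in replicate 1 alone, while Ptgds and the other 2 detected Fbln1 probe sets lie above it in all pools.

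The gap of replicate 1 was expressed as its log2 signal minus the mean log2 signal of replicates 2 and 3, after raising values under an array's 5th percentile to that percentile. This difference was -4.43 for Dcn, -3.71 for Acta2, and -3.36, -1.92 and -1.45 for the Ptgds probe sets 92546_r_at, 92545_f_at and 102105_f_at. For Fbln1 it was -2.95 at 94307_at, -0.89 at 94308_at and -0.60 at 94309_g_at. The signal of Dcn in replicate 1 was under the 5th percentile of 29.0, and those of Acta2 and 94307_at were under background, so these 3 differences have no measured size. With all values under 160.3 set to 160.3, the difference was -1.96 for Dcn, -2.18 for Acta2 and -2.60 for Fbln1 at 94307_at.

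A 4-fold gap below the lower of the other 2 pools was used to count low probe sets. In replicate 1 it was reached by 4 of the 9 member probe sets, against 1.58% of all 12422, and by 4 of the 8 that were above background in replicates 2 and 3, against 2.49% of 7865 such probe sets. The 4 were those of Dcn and Acta2, Ptgds at 92546_r_at and Fbln1 at 94307_at. Since the members were picked on this readout, nothing is read from the difference between these shares. The last inside the threshold was Ptgds at 7.58-fold among those detected in replicate 1, beside Fbln1 at 94307_at with a bound of at least 5.90-fold. The bound of Dcn, at least 3.76-fold, is itself under 4, and the first outside were the Ptgds probe sets at 2.94-fold and 2.02-fold. In the other direction of the question, no member probe set was low in replicate 2, where 1.99% of all were, or in replicate 3, where 0.902% were. The 4 that were low in replicate 1 could not be low in another pool, so nothing is read from this either. Below background in replicate 1 and above it in both other pools were 3 of the 9, against 8.96% of all probe sets, and 5 of the 9 exceeded the limit on every array, as did 54.4% of all.

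Probe sets of a gene often differed in this way on these arrays. Among 221 genes with 3 or more probe sets above background on any array, the differences of replicate 1 spanned a median of 1.73 on the log2 scale within a gene. The 3 probe sets of Ptgds spanned 1.91 and the 3 detected ones of Fbln1 spanned 2.35, larger than in 55.7% and 70.1% of those genes. This reference admits probe sets that were below background on some arrays. Those of Ptgds were above it on every array, so for Ptgds the comparison is not a like one.

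Replicates 2 and 3 were not compared in choosing the members, and here the members parted. Ptgds was higher in replicate 2 than in replicate 3 at each of its probe sets, by 1.85-fold at 92546_r_at, 1.83-fold at 102105_f_at and 1.66-fold at 92545_f_at. The other members were not higher in replicate 2: the ratio of replicate 2 to replicate 3 was 0.930 for Dcn, 0.984 for Acta2, and 0.950, 0.876 and 0.734 for Fbln1 at 94307_at, 94308_at and 94309_g_at. A gap of 1.5-fold or more in favour of replicate 2 was found at 3 of the 8 member probe sets above background in both pools, all of Ptgds, and at 8.47% of all such probe sets. Rod genes, which are also strong here, leaned the same way, with a median log2 difference of 0.62 over the 10 measured. Gnat1 and Pde6b were at 0.54 and 0.68, while Pde6a went the other way at -0.48. With 1 array per pool the comparison of these pools has no test. Under quantile normalization the 3 log2 differences of Ptgds were 0.59, 0.63 and 0.49 in place of 0.89, 0.87 and 0.73. With the arrays at equal medians they were 1.09, 1.08 and 0.93, and the small differences of Dcn, Acta2 and Fbln1 at 94307_at and 94308_at turned to 0.10, 0.18, 0.13 and 0.02. Fbln1 at 94309_g_at was higher in replicate 3, with a log2 difference of -0.45, or -0.58 under quantile normalization and -0.24 with equal medians.

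**Figure D2:**
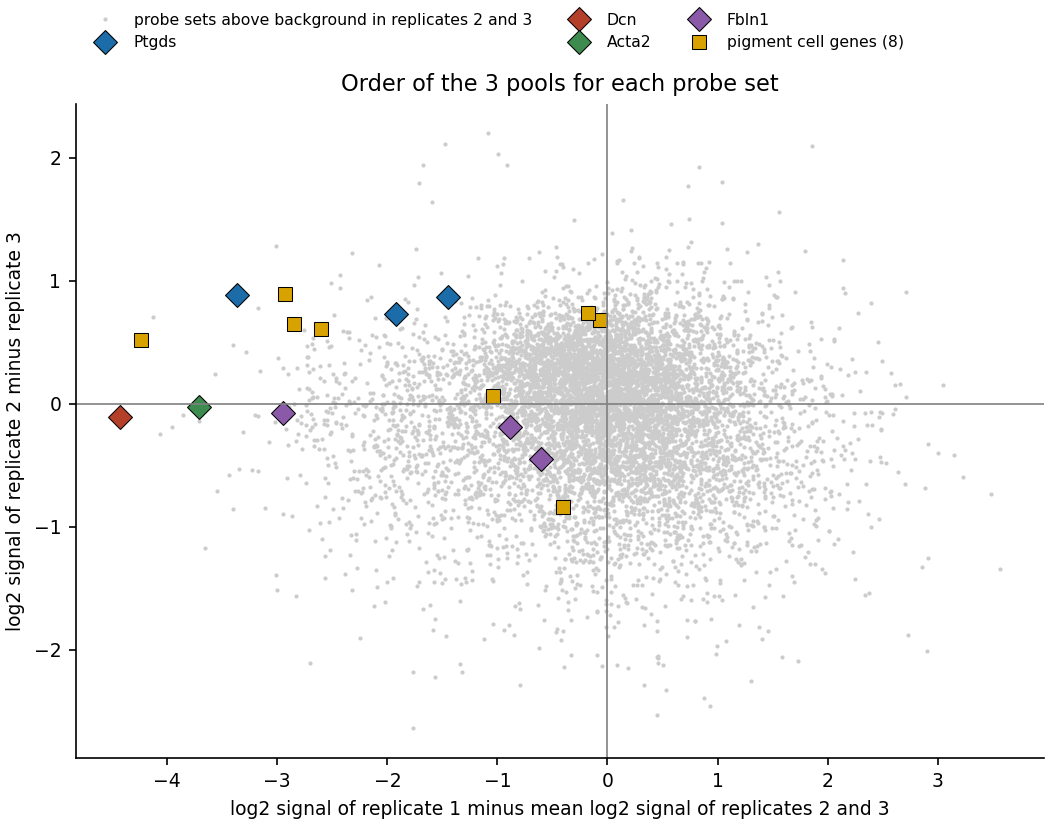
Each point is a probe set above background in replicates 2 and 3 (7865 in all, grey), with the log2 difference of replicate 1 from the mean of the other pools on the x axis and the log2 difference of replicate 2 from replicate 3 on the y axis. The 3 Ptgds probe sets (0.73 to 0.89 on the y axis) lie above 0, the 8 pigment cell genes are spread from -0.84 (Mitf) over 0.06 (Tyr) to 0.89 (Rdh5), and Dcn, Acta2 and Fbln1 lie between -0.45 and -0.02, 4 of these 5 turning slightly positive (0.02 to 0.18) where the arrays have equal medians.

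The label stromal was set against other genes of the same cells, with 1 probe set per gene. Of all 8251 genes, 1.65% were low in replicate 1 by the 4-fold gap, 47.1% of the 6957 above background on any array had a negative difference, and the median difference was 0.06. At these probe sets the 4 members had a median of -3.54 and 3 of 4 were low. The members were chosen for such a gap, and both values also depend on the probe set taken. Ptgds was low at 92546_r_at, the one used, but not at its other probe sets. Fbln1 was not low at 94308_at, the one used, but was at 94307_at. Of 18 other fibroblast and connective tissue genes 2 were low, and the 17 detected on any array had a median of -0.24, with 12 of them (70.6%) negative. Among these were Col6a3, of type VI collagen, with 156, 431 and 857, and the growth factor receptor gene Pdgfra with 389, 755 and 768, both named after their values were seen. The other type VI collagen chains of the list lacked such a gap. Col6a1 gave 1275, 906 and 1659, and Col6a2 gave 266, 248 and 395. Another Pdgfra probe set gave 150, 70.8 and 527, above background in replicate 3 alone. Col1a2, a chain of type I collagen, was 38.8, 219 and 268 in replicates 1, 2 and 3, and Pcolce, a collagen processing enhancer named after its values were seen, was 190, 780 and 1670. Col1a1, the partner chain of Col1a2, gave 556, 409 and 769 at the probe set used and 37.9, 149.6 and 158 at another, which was below background in replicate 1 alone. The other Col1a2 probe set gave 1424, 944 and 1959, so the probe sets of both chains disagreed. Lum, the keratan sulfate proteoglycan lumican, gave 193, 166 and 244, and Col3a1, of type III collagen, gave 189, 82.9 and 145.

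The relatives of Dcn and Fbln1 were read in the same way. Of 7 measured small leucine-rich proteoglycans other than Dcn, none was low in replicate 1, and the median of the 5 detected was 0.01, with 2 negative. Biglycan (Bgn), the closest relative of decorin, gave 490, 366 and 643, and another of its probe sets gave 660, 200 and 450. Fmod, encoding fibromodulin, gave 575, 246 and 416, and Ogn, encoding osteoglycin, gave 324, 364 and 403. Their other probe sets gave 240, 46.0 and 13.3 for Fmod, and 337, 281 and 430 for Ogn. Among 8 measured fibulin and elastic fibre genes none was low by 4-fold, while the median of the 7 detected was -1.03, with 4 negative. Fbln2, a second fibulin, was 120, 181 and 332, Eln, of elastin, was 157, 438 and 810, and the microfibril gene Mfap2 was 203, 521 and 585. Fbn2, of fibrillin-2, had the opposite order with 370, 132 and 151, and so did another Eln probe set with 1124, 101 and 23.7.

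The other genes of smooth muscle and pericytes mostly lacked the gap of Acta2. Of 14 measured genes 1 was low in replicate 1, and the median of the 12 detected was 0.02, with 6 negative. Tagln, the actin-binding protein transgelin of smooth muscle, gave 458, 410 and 393, and Tpm1, of tropomyosin, gave 1220, 729 and 492. Myh11, the smooth muscle myosin heavy chain, gave 166, 258 and 78.5, and Cnn1, of calponin, gave 66.6, 92.0 and 92.7. The low gene was Rgs5, a pericyte marker named after its values were seen, with 95.8, 390 and 391, but its other probe set gave 330, 224 and 112. Of the other 5 actins none was low by 4-fold. The cytoplasmic actins Actb and Actg1 gave 5985, 9456 and 6835, and 10259, 18399 and 14462. Skeletal actin Acta1 gave 56.7, 186 and 206, below background in replicate 1, and cardiac actin Actc1 gave 373, 375 and 568. Actin genes are close in sequence, so their probe sets may share signal.

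The measured prostaglandin enzymes and receptors other than Ptgds lacked a 4-fold gap in replicate 1. None of 14 other prostaglandin genes was low in replicate 1, 7 were above background on no array, and the median of the 7 detected was 0.79. Ptgs2, the inducible cyclooxygenase, was below background on all arrays with 28.3, 29.0 and 21.7. The prostaglandin E synthases Ptges and Ptges2 gave 430, 145 and 252, and 707, 520 and 322, and the prostacyclin synthase Ptgis gave 192, 86.4 and 132. The receptors for prostaglandin D2 differed, as Ptgdr was below background on all arrays and Ptgdr2 gave 216, 401 and 551, a difference of -1.13. Of 7 other small lipid carriers none was low, with a median of 0.16 for the 3 detected. Lcn2 gave 189, 179 and 160, the retinoic acid-binding protein gene Crabp1 gave 535, 296 and 197, and Rbp4 and Apod were below background on all arrays.

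Other cell types that can hold these transcripts were read the same way. None of 10 leptomeningeal and barrier genes was low, and 6 were above background on no array, Slc22a6 and Igf2 (17.7, 12.4 and 20.7) among them, although another Igf2 probe set gave 1706, 1283 and 2422. Slc6a13, a GABA transporter of leptomeninges, gave 811, 1073 and 1302, and Igfbp2 gave 1404, 753 and 653. Oligodendrocyte genes had the opposite sign, with a median of 2.59 for the 3 detected of 7, and Mbp at 990, 107 and 142, though its other probe set gave 322, 343 and 557. Mog and Mag were below background on all arrays at the probe sets used. Of 10 endothelial genes none was low, and the 9 detected had a median of 0.96, with Pecam1 at 629, 286 and 363, Kdr at 819, 527 and 808, and Cldn5 at 478, 331 and 411. Of 8 skeletal muscle genes none was low (median -0.72 for the 4 detected), and of 10 rod genes none was low (median -0.27). Among the skeletal muscle genes, Ckm gave 71.3, 299 and 266, below background in replicate 1 alone, and Mylpf gave 228, 159 and 199. Another probe set of each was below background on all arrays. With equal array medians or quantile normalization the difference of replicate 1 moved by a median of -0.35 over all probe sets. The median of all genes was then -0.29 or -0.04, that of the small leucine-rich proteoglycans -0.33 or -0.21, of the smooth muscle list -0.33 or -0.15, of the lipid carriers -0.19 or -0.23 and of rod genes -0.61 or 0.09. Under either, 2 smooth muscle and pericyte genes, 1 actin and 2 skeletal muscle genes were low by 4-fold, and the counts of the other lists were unchanged. Over all 8251 genes the count of low genes also rose, from 136 to 261 with equal array medians and to 330 under quantile normalization.

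Pigment cell genes were the list in which a low replicate 1 was most frequent among those examined, with 4 of 8 measured genes and a median of -1.82. Dct and Pmel, an enzyme and a matrix protein of the melanosome, had 764, 5724 and 3742, and 454, 4105 and 2610. Tyrosinase (Tyr) was 84.1, 177 and 170. The list was not uniform: Oca2 (288, 383 and 238), Mitf (130, 127 and 229) and Ttr (609, 891 and 533) lacked the gap, with differences of -0.07, -0.40 and -0.18. Nor was the order of replicates 2 and 3, since the log2 difference between them was 0.06 for Tyr and -0.84 for Mitf, and another Tyrp1 probe set gave 98.8, 520 and 574. The signals of this list summed to 2449, 13429 and 8836 in replicates 1, 2 and 3. Dct and Pmel gave most of the sum in replicates 2 and 3, and no gene of the list was below background on all arrays. For the fibroblast list the sums were 5230, 5912 and 9321, and for the smooth muscle and pericyte list 5986, 5916 and 5834. The red blood cell list gave 5490, 31716 and 8254, none of its 4 measured genes being low by 4-fold, with Hba-a1 at 4077, 25566 and 6661, Hbb-b2 at 1218, 5536 and 1207, and Alas2 at 82.8, 505 and 145. Dct, Pmel, Tyrp1 and Rdh5 thus shared the low replicate 1 with the members. At the scaling used they were higher in replicate 2 than in replicate 3, as Ptgds was. Dcn, Acta2 and the detected Fbln1 probe sets were not. This order of replicates 2 and 3 was not particular to pigment cell genes. The median log2 difference between them was 0.63 for the detected pigment cell genes, 0.62 for rod genes and 1.87 for red blood cell genes. For all genes it was 0.01. The part of the pigment cell genes in the members' pattern was not tested.

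**Figure D3:**
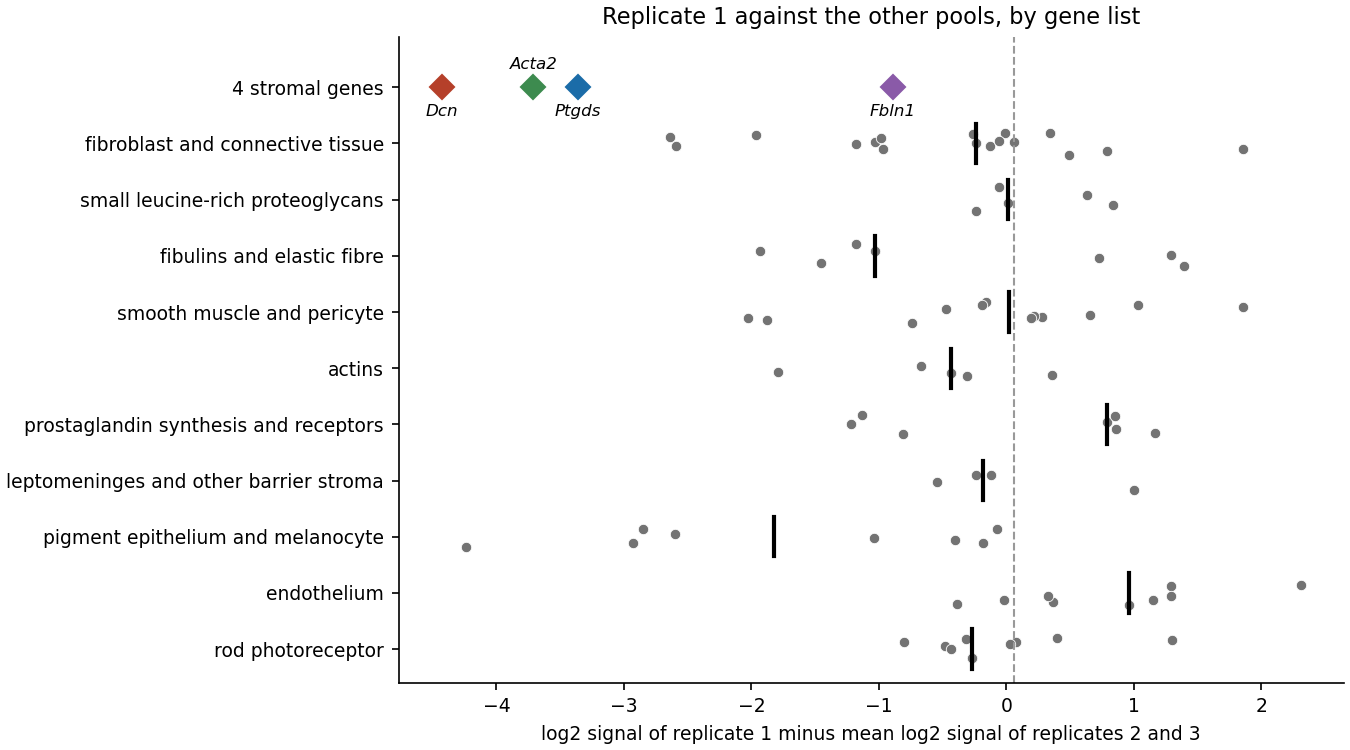
Log2 signal of replicate 1 minus the mean log2 signal of replicates 2 and 3, 1 point per gene above background on any array, by gene list without the members, with black bars at each list's median, the 4 members as coloured diamonds in the top row and a dashed line at the median of all genes (0.06). Dcn and Acta2 are drawn at -4.43 and -3.71, but with signals under 160.3 set to that value they are at -1.96 and -2.18, so their rank among the points is not measured. Each member is drawn at 1 probe set. Ptgds is drawn at -3.36, with its other probe sets at -1.92 and -1.45. Fbln1 is drawn at -0.89, with 94307_at at -2.95 and 94309_g_at at -0.60. The medians of the fibroblast and the smooth muscle lists are -0.24 and 0.02.

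The genes nearest to each member in pattern were found by the Euclidean distance between their 3 log2 signals, each centred on its mean, among 6953 genes above background on any array. For Ptgds, at its probe set 92546_r_at, these were Mdk (distance 0.171), Commd5 (0.292), Ero1b (0.334), Rdh5 (0.358) and Surf2 (0.398). Distances were not taken for its other probe sets, whose differences of replicate 1 were smaller (-1.92 and -1.45 against -3.36). Mdk, encoding the growth factor midkine, gave 56.3, 667 and 388, and Rdh5, the retinol dehydrogenase of pigment epithelium, gave 56.7, 587 and 316. Pmel was next in rank at 0.451, while Acta2 stood at 0.703, Dcn at 1.12 and Fbln1 at 2.16 from Ptgds.

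For Dcn the nearest were Tmem43 (0.393), Tyrp1 (0.471), Rnh1 (0.624), Dhrs7 (0.749) and Polr1a (0.835), with Acta2 at 0.589. Tyrp1, a melanosome protein, gave 63.2, 1434 and 997. For Acta2 they were Dhrs7 (0.225), Tmem43 (0.230), Eif2d (0.355), Gm4802 (0.417) and Commd5 (0.434). All of the 5 nearest genes of Ptgds, of Dcn and of Acta2 were below background in replicate 1, so their distances rest in part on values with no measured order. For Fbln1, at its probe set 94308_at, they were Retsat (0.009), Tbl2 (0.019), Josd2 (0.032), Fbxw7 (0.036) and Eif2s2 (0.045). The measure covers 3 samples of 1 group and describes these arrays alone.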

How the data were processed

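The authors deposited 1 linear intensity per probe set for each of 3 U74Av2 arrays, and the software that made them from the scans is not given in the sources here. Each array was scaled by 1 factor to the mean of the arrays' 2% trimmed means over 12422 probe sets that are not controls. For log2 values, signals under the 5th percentile of an array were raised to it. Of these probe sets 10833 carry 1 symbol in the platform annotation, 396 several and 1193 none. A gene is given by a probe set with a plain suffix, then by the highest mean. All 4 members have a symbol in the gene table of GRCm38.p6, used for names alone, and promoters come from RefSeq of that build.

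The samples form 1 group, so no test was run. The members and 15 gene lists were chosen with earlier results of these data known. Named genes were the members, the first 4 others of each list holding a member, the first 3 of other lists, and the 5 nearest genes to each member; any other was named after its values were seen. The counting was tested on simulated data. Alternatives to scaling, floor, pseudocount, limit, threshold and probe set were tried, and each pool was left out. The number of arrays limits the precision. Python 3.11.15, numpy 2.4.6 and pandas 2.3.3 were used.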

Additional observations from a re-analysis of the deposited data

How the results depend on the processing

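The difference of replicate 1 was followed at the 1 probe set used per gene, with the mean of a gene's probe sets as 1 alternative. So taken, it stayed negative for all 4 members under every alternative run. It ranged from -3.81 to -2.25 for Ptgds, -5.24 to -1.96 for Dcn, -4.23 to -2.18 for Acta2 and -1.24 to -0.79 for Fbln1. Single probe sets not used for these ranges went beyond them. Under quantile normalization the difference was -1.11 for Ptgds at 102105_f_at and -0.32 for Fbln1 at 94309_g_at. With equal medians it was -3.30 for Fbln1 at 94307_at. The difference has no value without replicate 1. The smallest gaps of Dcn and Acta2 came where values below each array's background limit were raised to it, or to 160.3 on all arrays, an alternative added after seeing the data, and then 3 member probe sets reached the 4-fold gap, without that of Dcn, against 0.25% of all. At an 8-fold threshold 2 member probe sets and 0.153% of all were low, and at 2-fold 6 and 7.35%. The 2 at 8-fold were those of Dcn and Acta2, whose bounds against the background limit of replicate 1 are under 8-fold. The share of all probe sets was 3.03% where the arrays had equal medians and 3.99% under quantile normalization, and both moved the median log2 signal by -0.22, 0.23 and 0.02 in replicates 1, 2 and 3. Without replicate 3 and without replicate 2 it was 2.29% and 3.35%, and the members' count was 5 and 4. The number of member probe sets above background on all arrays ranged from 5 to 8 when 1 pool was left out, with 8 without replicate 1. The other alternatives kept the counts within 1.5 times. Signal over background limits Dcn, Acta2 and Fbln1 at 94307_at in replicate 1 to a bound.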
